A study of Mus musculus with 29 samples.

Results

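Gene expression in the caudate nucleus of HdhQ150 mice was compared between 12 and 6 months of age, with 6 mice in the older group and 5 in the younger. These were the 11 of the study's 29 arrays whose titles join the HdhQ150 genotype with either age, and each array held RNA of a separate mouse, so the ages were different animals. HdhQ150 mice carry an expanded CAG repeat in their own huntingtin gene, Htt, and the number of expanded copies per mouse is not given in the sources used here. All mice had the mixed strain background 129/Ola x C57BL6/J and no treatment is labelled. The 6-month group held 4 mice labelled female and 1 labelled male, and the 12-month group held 4 and 2. Wild-type littermates of 6 months (5 mice) and 12 months (5 mice) served as the reference for change with age, and 4 HdhQ150 and 4 wild-type mice of 18 months took part in the fit.

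The caudate nucleus belongs to the striatum, the main input station of the basal ganglia. Most of its neurons are GABA-releasing projection neurons. Those of the direct pathway carry the dopamine receptor Drd1 and the peptide gene Tac1, and those of the indirect pathway carry Drd2 and Penk. A small share are interneurons, marked by peptides and channels of their own, and glutamate arrives from axons of cortical and thalamic neurons whose cell bodies, and most of whose mRNA, lie elsewhere. Huntington's disease is caused by CAG expansion in the huntingtin gene and strikes striatal projection neurons early. Expansion models are known for a gradual loss of mRNAs typical of these neurons.

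Levels are log2 values, so a difference of 1 is a doubling. Defining markers of the labelled tissue were present, with Drd1 at 9.25 or higher, Drd2 at 10.23 or higher and Penk at 12.02 or higher in every HdhQ150 mouse of 6 and 12 months. Array medians lay between 6.91 and 7.05, and arrays within an HdhQ150 group of either age correlated on average at 0.990 to 0.993. Mouse 1023 (6 months, labelled female) did not match its label, with Xist at 5.95 and Eif2s3y at 8.30 against 11.11 to 11.28 and 3.78 to 4.05 in the other labelled females of its group. Of the wild-type mice, WT-454 (12 months) was the least like its group, at an average correlation of 0.959. The spread of an array's levels over genes was 1.52 to 1.59 (SD of log2 levels) in the 6-month HdhQ150 mice and 1.42 to 1.51 in the 12-month mice. The mean level of 1194 olfactory and vomeronasal receptor genes, which are expressed mainly in sensory neurons of the nose and lay among the dimmest probe sets, was 5.03 to 5.32 at 6 months and 5.41 to 5.74 at 12 months. Neither measure overlapped between the ages. The HdhQ150 mice were numbered 1001 to 1023 at 6 months, 451 to 526 at 12 months and 383 to 426 at 18 months. No batch is labelled, and age cannot be told apart from anything else that differed between these cohorts.

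**Figure D1:**
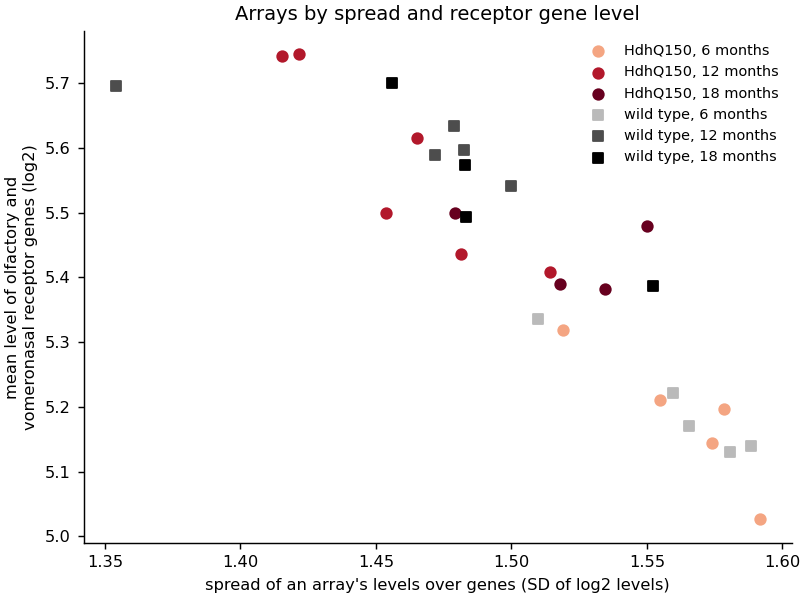
Each point is 1 of the 29 arrays, by the spread of its levels over genes (horizontal, SD of log2 levels) and its mean level over 1194 olfactory and vomeronasal receptor genes (vertical, log2). Circles are HdhQ150 and squares wild type, with darker colour for greater age. The 6-month arrays of both genotypes lie at the lower right, and the 12-month HdhQ150 arrays all lie between 5.41 and 5.74 on the vertical axis.

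From 6 to 12 months in HdhQ150 caudate, 16 of 27 striatal projection neuron markers and 7 of 18 mature oligodendrocyte markers rose. So did 803 of 1194 receptor genes, whereas 8 of 11 cortical neuron markers and 14 of 21 presynaptic genes fell. Of all genes 11.9% rose and 11.2% fell. With the mean receptor level of each array as a covariate, 1 projection neuron marker, 1 oligodendrocyte marker and 0 receptor genes rose. Under that covariate, which did not overlap between the ages, 1 cortical marker and 1 presynaptic gene fell. Of 19938 genes, 4599 (23.1%) passed limma's test at an adjusted p of 0.05. Of these, 2372 (11.9% of all genes) were higher at 12 months and 2227 (11.2%) were lower, and 7066 genes (35.4%) had an unadjusted p below 0.05. Large differences were mostly losses: of 63 passing genes that differed by at least 1, 12 were higher and 51 lower, and at a size of at least 0.5 the numbers were 449 and 410. The median difference was 0.35 over the genes that rose, -0.31 over those that fell and 0.036 over all genes. For 1318 genes (6.61%) every 12-month mouse lay above every 6-month mouse, and for 1472 (7.38%) every one lay below.

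Direction followed expression level. With the genes cut into 4 equal sets by mean level, 27.8% rose and 0.542% fell in the dimmest set, whereas 6.88% rose and 25.4% fell in the brightest. The median difference went from 0.18 in the dimmest set through 0.058 and -0.032 to -0.069 in the brightest. Of the 1194 receptor genes 803 rose and none fell, with a median difference of 0.38, beside 806 and 0.40 in wild type, and quantile normalization gave 347 higher and 5 lower. Receptor genes made up 33.9% of the genes that rose and 5.99% of all genes. The part of the array-wide shift in these counts was not tested apart from age. With the mean receptor level of each array added as a covariate, a term whose values did not overlap between the ages, 94 genes passed (37 higher and 57 lower), and 91 of them had passed before, in the same direction. Of 35 gene lists with a passing member, 22 had none left under that covariate, among them the interneuron, microglia, glutamate receptor, clock and cholesterol lists. Without the receptor genes, 3601 of 18744 genes passed, of which 1463 were higher and 2138 lower.

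**Figure D2:**
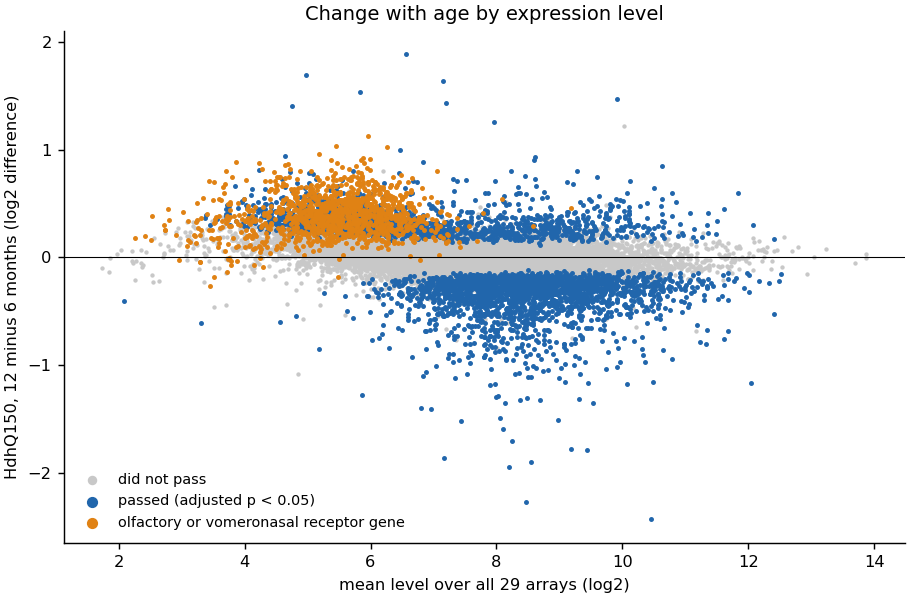
Each point is a gene, by its mean level over all 29 arrays (horizontal, log2) and its difference between 12-month and 6-month HdhQ150 mice (vertical, log2). Blue genes passed at an adjusted p of 0.05, grey genes did not, and orange marks receptor genes whether or not they passed. Genes that rose crowd at the dim left, where the orange receptor genes lie, and the largest losses lie among brighter genes at the right.

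The promoters of 3 genes on which the account turns are shown, as RefSeq gives the 250 bases before the gene's start in build GRCm38.p6. Ryr1 was the gene whose change with age differed between genotypes, Vsnl1 shared the smallest adjusted p among genes that fell, and Olfr342 had the largest rise of the 10 receptor genes among the first 15 by p. Each reads 5′ to 3′ on the gene's own strand, and capitals mark CG, which reads the same on both strands. They lie at chr7:29125152-29125401 (minus strand), chr12:11436579-11436828 (minus strand, the first of 2 listed for the gene) and chr2:36527164-36527413 (plus strand).
Ryr1: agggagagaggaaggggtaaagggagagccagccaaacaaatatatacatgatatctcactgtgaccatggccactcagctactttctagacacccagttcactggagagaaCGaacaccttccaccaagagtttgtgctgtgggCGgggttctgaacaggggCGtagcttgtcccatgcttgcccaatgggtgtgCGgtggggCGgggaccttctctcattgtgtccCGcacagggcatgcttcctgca
Vsnl1: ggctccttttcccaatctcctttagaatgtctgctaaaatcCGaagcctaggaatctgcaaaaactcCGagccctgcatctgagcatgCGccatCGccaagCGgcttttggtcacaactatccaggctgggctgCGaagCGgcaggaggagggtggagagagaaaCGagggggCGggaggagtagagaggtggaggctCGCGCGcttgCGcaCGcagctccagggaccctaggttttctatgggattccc
Olfr342: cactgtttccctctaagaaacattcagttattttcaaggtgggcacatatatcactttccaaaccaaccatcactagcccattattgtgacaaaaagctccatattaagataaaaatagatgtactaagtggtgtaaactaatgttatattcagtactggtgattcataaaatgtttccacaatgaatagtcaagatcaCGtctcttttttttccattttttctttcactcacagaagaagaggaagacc
The Ryr1 window held 6 CG and 54.8% G or C, that of Vsnl1 held 14 and 58%, and that of Olfr342 held 1 and 34%. CG occurred in 92.1% of the 32851 windows of this length in the table, with a median of 6. These are descriptions of 3 windows. Listed promoters covered 78.1% of the genes tested. Their medians were 2 CG and 43.2% G or C for genes that rose, and 16 and 61.2% for genes that fell. Over all genes the medians were 11 and 56.4%. Without the receptor genes, those that rose had medians of 4 and 49.6%. The differences between these sets were not tested.

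Among the genes with the smallest p that fell were several with known roles in neurons. Vsnl1, a calcium sensor of neurons, read 12.33, 12.51, 12.56, 12.57 and 12.61 in the 6-month mice, and its lowest, median and highest levels at 12 months were 11.02, 11.39 and 11.52. The groups lay far apart, and the level fell by 1.17 (SE 0.087, adjusted p = 9.43e-10), which is 2.25-fold. Napb, which helps take apart SNARE complexes after vesicle fusion, read 10.83, 11.02, 11.05, 11.16 and 11.26 at 6 months and 9.69, 9.98 and 10.10 (lowest, median, highest) at 12 months. Its groups did not overlap either, and it fell by 1.16 (SE 0.088, adjusted p = 9.43e-10). Gabra3, a subunit of GABA-A receptors, went from 10.55 ± 0.15 (SD, n = 5) to 9.36 ± 0.17 (n = 6). Mouse 453 read lowest at 9.04, and the other 12-month mice lay between 9.35 and 9.48, all below the lowest 6-month mouse at 10.35. Sphkap, an anchoring protein of protein kinase A, fell by 1.32 (SE 0.11, adjusted p = 1.03e-08). Syt17, of the synaptotagmin family, fell by 1.49 (SE 0.13, adjusted p = 1.33e-08).

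Pcsk1n encodes proSAAS, an inhibitor of a prohormone convertase. It read 11.76, 11.78, 11.89, 11.97 and 12.04 at 6 months and 11.01, 11.14 and 11.18 (lowest, median, highest) at 12 months, so the 12-month mice differed among themselves by less than 0.2 and lay wholly below the younger group. The remaining members of the 15 with the smallest p were Ywhah (a 14-3-3 protein, -0.81), Cacng7 (an auxiliary subunit of AMPA receptors, -0.91), Srrm4 (a neuronal splicing factor, -0.88), Tafa1 (a secreted protein of brain, -1.71), Tmem50b (-0.97), Cpne6 (a calcium-binding copine, -0.87), Mast1 (a kinase tied to microtubules, -1.11), Vwa5b2 (-0.82) and Stmn2 (a microtubule regulator of axons, -0.66). All 15 also passed with the receptor level as a covariate.

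Of the 15 genes with the smallest p among those that rose, 10 were olfactory receptor genes. Olfr342 read 5.04, 5.17, 5.30, 5.34 and 5.39 at 6 months, and its lowest, median and highest levels at 12 months were 5.97, 6.40 and 6.73. Its groups did not overlap, and it rose by 1.13 (SE 0.15, adjusted p = 4.48e-06). None of the 10 passed with the receptor level as a covariate, by construction a test of departure from that level, while the 5 other genes did. Carhsp1, a calcium-regulated RNA-binding protein, read 7.86, 8.11, 8.14, 8.15 and 8.36 at 6 months and 8.75, 8.85 and 8.98 (lowest, median, highest) at 12 months. It rose by 0.76 (SE 0.077, adjusted p = 2.08e-07), with a clear gap between the groups. Onecut2, a transcription factor, rose by 0.93 (SE 0.12, adjusted p = 3.96e-06). Rpl5 and Rpsa, both of the ribosome, rose by 0.60 and 0.48, and Cox4i1, of cytochrome c oxidase, rose by 0.47. Rpl5 and Rpsa have many near-identical pseudogenes, so their probe sets may read more than 1 locus.

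Markers of striatal projection neurons were higher at 12 months. Of 27 measured, 16 rose, 1 fell and 10 did not pass, with a median difference of 0.32. Of all genes 11.9% rose and 11.2% fell, and of the brightest set 6.88% rose and 25.4% fell. With the receptor covariate 1 rose and none fell, and the median was 0.42. Their mean level per mouse was 9.75 to 10.15 at 6 months and 10.11 to 10.30 at 12 months, so the groups overlapped only at the edge. Rarb and Rxrg, retinoid receptors, rose by 0.54 (adjusted p = 0.000151) and 0.58 (adjusted p = 0.000195). Rgs9, which shortens signals of G proteins coupled to dopamine receptors, read 9.98, 10.24, 10.43, 10.64 and 10.78 at 6 months and 10.81, 10.99 and 11.18 (lowest, median, highest) at 12 months. The 6-month mice were widely spread, mice 1017 and 1003 were the lowest, and the groups just failed to overlap. Rgs9 rose by 0.60 (SE 0.12, adjusted p = 0.00044), and the striatal phosphatase Ptpn5 rose by 0.32 (adjusted p = 0.000444). With the receptor level of each array as a covariate 1 of the 27 passed, and with the spread 16 did. In bulk tissue, more or fewer cells of a type and more or less RNA per cell cannot be told apart.

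Direct and indirect pathway genes moved the same way where they passed, beside 11.9% of all genes that rose. Of 10 direct pathway markers 4 rose and none fell, with a median of 0.14: Tac1 by 0.65, Ebf1 by 0.57, Drd1 by 0.39 and Slc35d3 by 0.38. Drd1 read 9.25, 9.32, 9.58, 9.67 and 9.76 at 6 months and 9.80, 9.92 and 9.99 (lowest, median, highest) at 12 months. Of 8 indirect pathway markers 2 rose and none fell, with a median of 0.15. Drd2 read 10.23, 10.37, 10.76, 10.80 and 10.83 at 6 months and 10.96, 11.15 and 11.28 at 12 months, and it rose by 0.52 (SE 0.094, adjusted p = 0.000226). Gpr6, an orphan receptor of these neurons, also rose by 0.52. Gpr52 and Gucy1a1 differed by 0.38 and 0.22 without passing. As with Rgs9, mice 1017 and 1003 read lowest at 6 months for Drd1, Drd2 and Tac1, and the 12-month group was the tighter one.

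Other genes known from the disease gave a divided picture. Pde10a, the phosphodiesterase of projection neurons, rose by 0.34 (adjusted p = 0.00251). Penk differed by 0.054 (adjusted p = 0.689), Pdyn by -0.040 (0.843), the cannabinoid receptor gene Cnr1 by -0.17 (0.189) and Ppp1r1b, which encodes DARPP-32, by 0.23 (0.0693). None of these 4 passed, although Ppp1r1b did in 2 of 22 other settings. Gpx6, a glutathione peroxidase, differed by 0.17 (0.337), Phex, a membrane peptidase, by 0.18 (0.252), and Gfap by -0.085 (0.714). Htt itself read 8.73 to 8.88 at 6 months and 8.50 to 8.80 at 12 months, a difference of -0.11 (SE 0.059, adjusted p = 0.19), and passed in 0 of 22 other settings.

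**Figure D3:**
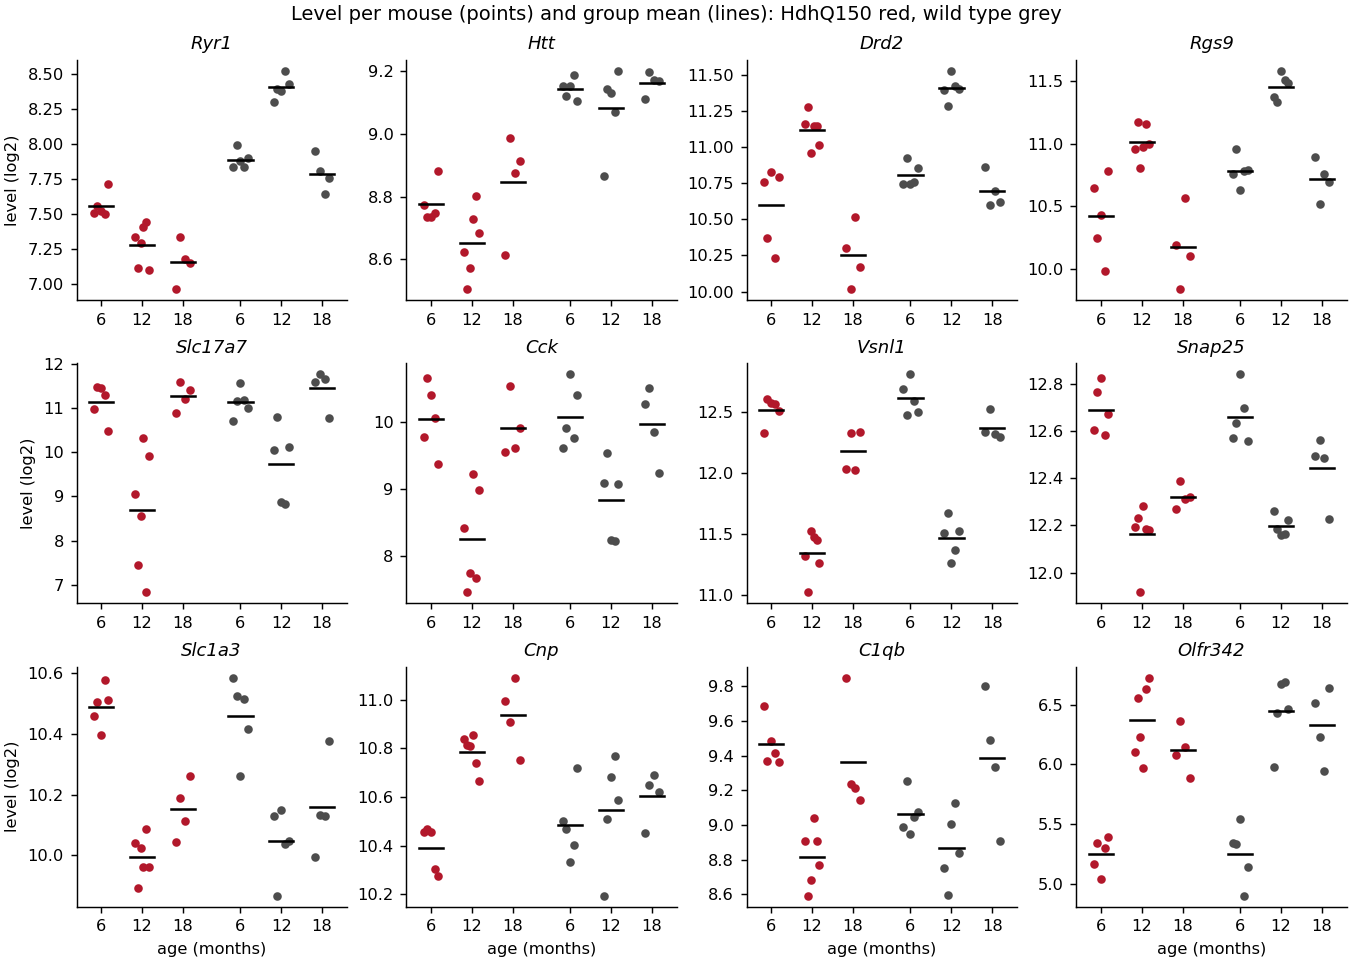
Each panel shows 1 gene, with a point per mouse (vertical, log2 level), a line at the group mean, HdhQ150 in red and wild type in grey at 6, 12 and 18 months (horizontal). Ryr1 is lower at 12 than at 6 months in HdhQ150 and higher in wild type. Slc17a7 spreads from 6.82 to 10.33 in the 12-month HdhQ150 mice, and Drd2 and Rgs9 peak at 12 months in both genotypes.

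Markers of cortical excitatory neurons had the lowest median of any list. Of 11 measured, 8 fell, none rose and 3 did not pass, and the median difference was -0.58. Their mean level per mouse was 8.35 to 8.99 at 6 months and 7.47 to 8.26 at 12 months, with no overlap. Slc17a7, the vesicular glutamate transporter of cortical neurons, read 10.49, 10.97, 11.30, 11.46 and 11.47 at 6 months, and 6.82, 7.44, 8.55, 9.05, 9.91 and 10.33 across the 12-month mice. The 12-month mice thus differed from one another more than the groups did at their edges. With the receptor covariate 1 of the 11 fell. Slc17a7 fell by 2.44 (SE 0.43, adjusted p = 0.000167). Tbr1, a transcription factor of cortical projection neurons, fell by 1.95 (SE 0.34, adjusted p = 0.000146), and ordered the 12-month mice as Slc17a7 did, from mouse 487 at 5.69 to mouse 464 at 8.14. Neurod1 fell by 1.28 and Mef2c by 0.70. Of 10 thalamic and septal neuron markers 3 fell and none rose, beside 11.2% of all genes that fell: Slc17a6 (-0.93), Ntng1 (-0.75) and Calb2 (-1.52). Calb2 no longer passed without mouse 1003 or mouse 1017 of 6 months.

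Of 15 interneuron markers 8 fell, none rose and 7 did not pass, with a median of -0.28, beside 11.2% of all genes that fell. Calb2 is in this list as well as the thalamic and septal list. With the receptor covariate none of the 15 passed and the median was -0.15. The somatostatin gene Sst read 11.54, 11.82, 11.86, 11.90 and 11.94 at 6 months and 11.01, 11.18 and 11.26 (lowest, median, highest) at 12 months, and it fell by 0.67 (SE 0.097, adjusted p = 1.75e-05). Its groups did not overlap. Npy fell by 0.40 (adjusted p = 0.00313) and Kcnc1, a potassium channel of fast-spiking cells, by 0.43. Cck, which cortical neurons also express, fell by 1.79, and its 12-month mice ranged from 7.45 to 9.22. The levels of cortical markers differed between the same groups, and their part in the falls of interneuron and synaptic genes was not tested.

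Of 21 presynaptic genes measured 14 fell, 2 rose and 5 did not pass, and the median was -0.30, beside 25.4% that fell among the brightest set of all genes. With the receptor covariate 1 fell and none rose. Snap25, a SNARE protein of vesicle fusion, read 12.58, 12.60, 12.67, 12.76 and 12.82 at 6 months and 11.92, 12.19 and 12.28 (lowest, median, highest) at 12 months. Its groups did not overlap, with mouse 462 the lowest, and it fell by 0.53 (SE 0.066, adjusted p = 3.03e-06). Syn2, a synapsin that tethers vesicles, fell by 0.50, Pclo, a scaffold of the active zone, by 0.34, and Cplx1, which clamps fusion, by 0.54. Of 17 postsynaptic scaffold genes 5 fell and 2 rose, with a median of -0.075, beside 11.2% of all genes that fell and 11.9% that rose. Shank1 fell by 1.32 (adjusted p = 4.48e-06), Dlgap1 by 1.02, Homer2 by 0.80 and Shank2 by 0.55.

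Calcium signalling and channel genes held both directions, beside 11.2% of all genes that fell and 11.9% that rose. Of 33 calcium genes 12 fell and 4 rose, with a median of -0.12. Camk2d fell by 1.12 (adjusted p = 3.03e-06), Cacna1g, a T-type calcium channel, by 0.84, Camk1g by 0.61 and Camk1 by 0.60. Of 92 potassium channel genes 29 fell, 6 rose and 57 did not pass, with 47 of 92 positive and a median of 0.024. Quantile normalization gave 13 higher and 23 lower for this list, and the receptor covariate 1 higher and 0 lower. Kcnj3, an inward rectifier gated by G proteins, fell by 1.05, Kcnk9, a leak channel, fell by 1.01, Kcnip3 fell by 0.74 and Kcnd3, an A-type channel, fell by 0.66. Of 22 glutamate receptor genes 7 fell and none rose (none with the receptor covariate), led by Grm2 (-0.77), Grik1 (-0.68), Grin3a (-0.61) and Grin2d (-0.34). GABA receptor genes split evenly at 4 and 4 of 18. Gabbr2, of the GABA-B receptor, fell by 0.86 and Gabra5 by 0.38, whereas Gabrd, of extrasynaptic receptors, rose by 0.39.

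**Figure D4:**
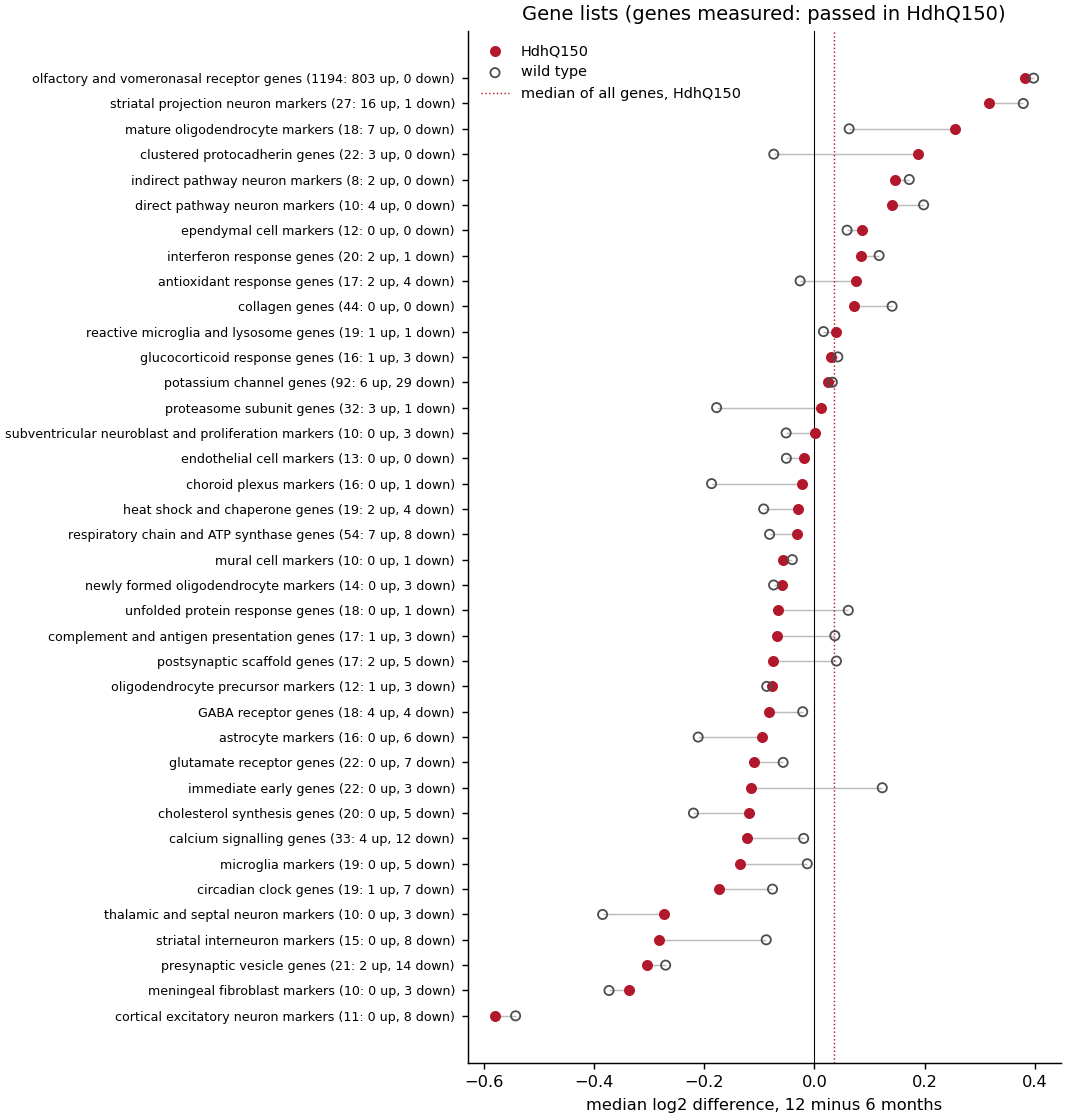
Each line is a gene list, with the number measured and the numbers that passed higher and lower in HdhQ150. Filled circles give the list's median log2 difference between 12 and 6 months in HdhQ150, open circles that in wild type, and the dotted line the median of all genes in HdhQ150 (0.036). Receptor genes and projection neuron markers lie at the right and cortical markers at the left in both genotypes. Protocadherin and immediate early genes are among several lists that lie on opposite sides of 0 in HdhQ150 and wild type. Others are the unfolded protein response, postsynaptic scaffold, complement, proteasome and antioxidant lists.

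Glial lists moved in different directions, beside 11.9% of all genes that rose and 11.2% that fell. Of 18 mature oligodendrocyte markers 7 rose, none fell and 11 did not pass, with a median of 0.26. Cnp, an enzyme of myelin, read 10.27, 10.31, 10.46, 10.46 and 10.47 at 6 months and 10.66, 10.81 and 10.86 (lowest, median, highest) at 12 months. Its groups did not overlap, and it rose by 0.40 (SE 0.081, adjusted p = 0.00066). Mal, a lipid raft protein of myelin, rose by 0.44, Mobp by 0.41 and Mbp, myelin basic protein, by 0.23. With each array's spread as a covariate 10 of the 18 rose, and with the receptor level 1 did. Newly formed oligodendrocyte markers gave 3 falls and no rise in 14 (Tmem163, Rras2 and Bmp4, by 0.56, 0.55 and 0.38), and precursor markers gave 3 falls and 1 rise in 12. C1ql1, Ptprz1 and Olig2 fell by 0.39, 0.38 and 0.19, and Cacng4 rose by 0.42.

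Of 16 astrocyte markers 6 fell and none rose, with a median of -0.095, beside 11.2% of all genes that fell. Slc1a3, a glutamate transporter, read 10.39, 10.46, 10.50, 10.51 and 10.58 at 6 months and 9.89, 9.99 and 10.09 (lowest, median, highest) at 12 months, and it fell by 0.50 (SE 0.065, adjusted p = 4.57e-06). The 2 connexins fell with it, Gja1 by 0.50 and Gjb6 by 0.56, and Sox9 fell by 0.28. Of 19 microglia markers 5 fell and none rose, with a median of -0.14, and none passed with the receptor covariate. C1qb, of complement C1q, read 9.36, 9.37, 9.41, 9.49 and 9.69 at 6 months and 8.59, 8.84 and 9.04 at 12 months, without overlap, and it fell by 0.64 (SE 0.13, adjusted p = 0.000558). C1qc fell by 0.46, P2ry13, a purine receptor, by 0.33 and Tmem119 by 0.19. Tmem119 no longer passed without mouse 526 or mouse 1003, or in labelled females alone.

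Markers of tissue that borders the striatum, and of vessels and blood, were counted in the same way, beside 11.2% of all genes that fell and 11.9% that rose. Of 16 choroid plexus markers 1 fell (Igf2, by 0.62, lost without mouse 1017), and of 10 meningeal fibroblast markers 3 fell (Islr by 0.54, Fmod by 0.69 and Igf2). Igf2 is in both lists. Of 12 ependymal and 13 endothelial markers none passed limma's test, and 1 and 0 of them had an unadjusted p below 0.05. Of 10 mural cell markers Vtn fell, by 0.36. Of 10 markers of neuroblasts and dividing cells 3 fell, Dlx1 by 0.52, Dcx by 0.30 and Dlx2 by 0.28. Neither of the 2 blood markers measured passed.

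Counts for the remaining pathways are set beside 11.2% of all genes that fell and 11.9% that rose. Clock genes leaned down, with 7 of 19 lower and 1 higher and a median of -0.17. Ciart, a repressor of the clock, read 8.78, 8.84, 8.86, 9.11 and 9.16 at 6 months and 7.94, 8.24 and 8.40 at 12 months, and fell by 0.72 (SE 0.094, adjusted p = 4.79e-06). Bhlhe40 fell by 0.75 and Dbp by 0.39, and Cry1 rose by 0.31. The hour of tissue collection is not given in the sources used here. Of 22 immediate early genes 3 fell and none rose, namely Nr4a2 (-1.51), Nr4a3 (-0.49) and Jun (-0.36), with a median of -0.12. Of 16 glucocorticoid response genes 3 fell and 1 rose. The metallothioneins Mt2 and Mt1, which bind zinc and copper, fell by 0.76 and 0.31, Zbtb16 fell by 0.53 and Pdk4 rose by 0.26.

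Beside 11.2% of all genes that fell and 11.9% that rose, cholesterol synthesis genes had 5 falls and no rise in 20. Among them, Fdft1, squalene synthase, was lower by 0.48, Nsdhl by 0.34, Tm7sf2 by 0.25 and Dhcr7 by 0.24. Of 19 heat shock genes 4 fell and 2 rose, with Hspb1 lower by 0.73, Hspa1a by 0.44, Hsp90aa1 by 0.29 and Stip1 by 0.28. Of 18 genes of the unfolded protein response 1 passed, Sdf2l1, lower by 0.52. Of 54 respiratory chain and ATP synthase genes 7 were higher and 8 lower, to be read against the same shares of all genes. Cox4i1 and Ndufb2 rose by 0.47 and 0.51, and Uqcrc1 and Atp5d fell by 0.49 and 0.32. Quantile normalization gave 11 higher and 2 lower for this list and turned its median from -0.031 to 0.055. Of 32 proteasome genes 3 rose (Psma1 by 0.30, Psma3 by 0.29 and Psma2 by 0.26) and 1 fell (Psmd11, by 0.19).

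Immune genes passed in both directions, in counts set beside 11.9% of all genes that rose and 11.2% that fell. Of 20 interferon response genes 2 rose and 1 fell, the fall being Ifitm3 at -0.74 and the rises Rsad2 at 0.29 and Gbp3 at 0.23. Of 17 complement and antigen presentation genes C4b rose, by 0.51 (SE 0.095, adjusted p = 0.000303), and C1qb, C1qc and Cd74 fell, the last by 0.45. C4b, a component of the classical pathway, read 7.61 to 7.83 at 6 months and 8.13 to 8.34 at 12 months, so the groups lay apart. Of 19 genes of reactive microglia and lysosomes Lpl rose by 0.50 and Apoe fell by 0.28. Of 17 antioxidant genes 2 rose and 4 fell. Clustered protocadherin genes, adhesion molecules that mark neurons individually, were positive in 22 of 22, with a median of 0.19 and 3 past the threshold, beside 58.3% of all genes with a positive difference. None of 44 collagen genes passed limma's test, and 3 had an unadjusted p below 0.05. With the spread of each array as a covariate 8 collagen genes fell, and the median turned from 0.072 to -0.19.

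Change with age in wild-type mice had much the same content, and their arrays also differed as a whole between the ages. The mean receptor level of the wild-type arrays was 5.13 to 5.34 at 6 months and 5.54 to 5.70 at 12 months. With that level as a covariate 168 genes passed in wild type and 94 in HdhQ150. The part of this array-wide shift in what the genotypes shared was not tested. The wild-type groups were other mice, but both genotypes were fitted together, with a shared variance per gene and a shared sex term. The calls in the genotypes are therefore not independent of each other. With only the groups compared in the fit, 5413 genes passed in HdhQ150 and 3514 in wild type. In the joint fit of wild type 5121 genes passed (25.7%), 2612 higher (13.1%) and 2509 lower (12.6%). There 7779 (39%) had an unadjusted p below 0.05. Without mouse WT-454, 3302 passed. In both genotypes 2812 genes passed, of which 2809 went the same way (1459 higher and 1350 lower). They were 61.1% of those called in HdhQ150 and 54.9% of those called in wild type. Across the 19938 genes the differences of the genotypes correlated at 0.807, as a description, since genes share arrays and are not replicates. Vsnl1 fell by 1.17 in HdhQ150 and by 1.16 in wild type. Projection neuron markers rose in 21 of 27 in wild type, and cortical markers fell in 7 of 11.

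The test of the change in HdhQ150 minus that in wild type left 1 gene of 19938 (0.00502%), with 1297 (6.51%) at an unadjusted p below 0.05. On simulated data this test recovered 5.97% of planted differences of 0.3 and 46.3% of those of 0.5. The test between ages in HdhQ150 recovered 46.3% and 89.6% of them. Differences of this size between the genotypes can therefore be missed by the test between genotypes. Of the 1787 genes called in HdhQ150 alone, 325 (18.2%) had an unadjusted p below 0.05 in it, and none of them passed the adjusted test. They were chosen in the same fit for passing in 1 genotype and not the other. A share above that of all genes follows from this choice and is no sign of a difference between genotypes. Ryr1, which passed in both genotypes in opposite directions, encodes a ryanodine receptor, a channel that releases calcium from the endoplasmic reticulum. It read 7.50, 7.51, 7.52, 7.55 and 7.71 in HdhQ150 mice of 6 months and 7.10, 7.31 and 7.44 (lowest, median, highest) at 12 months. In wild type it read 7.83, 7.84, 7.87, 7.89 and 7.99 at 6 months and 8.30, 8.38, 8.39, 8.43 and 8.52 at 12 months. No group of either genotype overlapped another. Ryr1 fell by 0.27 in HdhQ150 (SE 0.072, adjusted p = 0.00671) and rose by 0.51 in wild type (adjusted p = 2.98e-05), and the changes differed by -0.78 (SE 0.10, adjusted p = 0.00068). In every setting run on genes this difference passed. Its adjusted p was recorded where sex terms, samples, weights, covariates or quantile normalization were varied, and there it was 8.17e-05 to 0.0121.

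**Figure D5:**
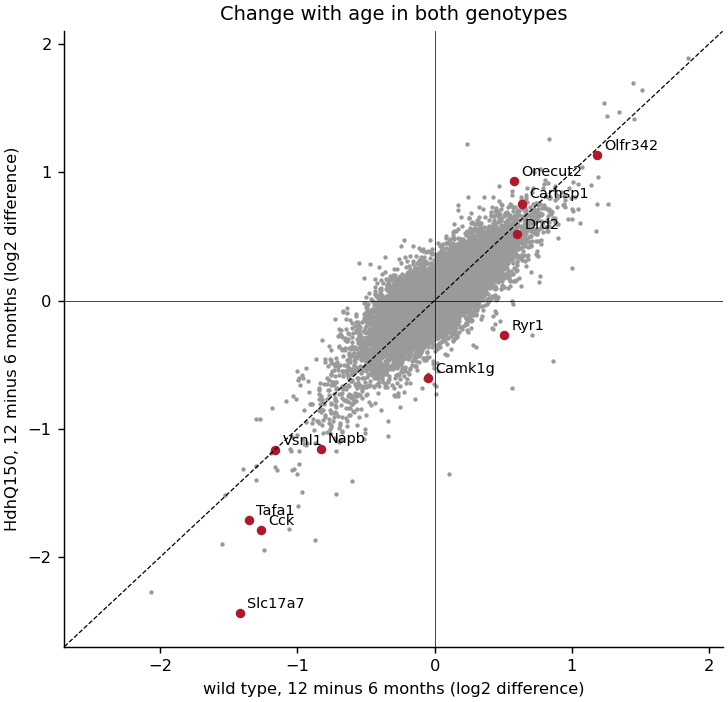
Each point is a gene, by its difference between 12 and 6 months in wild type (horizontal, log2) and in HdhQ150 (vertical, log2), with red for genes named in the text and a dashed line of equal change. Most genes lie along the line. Ryr1 lies below and to the right, at 0.51 in wild type and -0.27 in HdhQ150.

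Several lists had unlike medians in the genotypes, with no member past the test of the difference. Immediate early genes had a median of -0.12 in HdhQ150 and 0.12 in wild type, protocadherins 0.19 and -0.074, mature oligodendrocyte markers 0.26 and 0.063, microglia markers -0.14 and -0.013 and interneuron markers -0.28 and -0.088. Without mice 1023 and WT-454 the protocadherin medians were 0.22 and 0.038 and those of immediate early genes -0.18 and 0.021. Single genes with large gaps that did not pass that test included Camk1g, which fell by 0.61 in HdhQ150 and differed by -0.049 in wild type (adjusted p of the difference 0.709). Hspb1 fell by 0.73 and differed by 0.0077 in wild type, also with an adjusted p of the difference of 0.709.

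Levels at 18 months came from 4 HdhQ150 mice, and comparisons with them share the 12-month or 6-month arrays. Between 12 and 18 months 1154 genes passed (5.79% of all, 4.18% higher and 1.61% lower), and between 6 and 18 months 927 did (4.65%, with 2.28% higher and 2.37% lower). Slc17a7 was 2.54 higher at 18 than at 12 months (adjusted p = 0.000825) and 0.11 from its 6-month level (adjusted p = 0.947). Vsnl1 rose by 0.82 from 12 to 18 months and was still 0.35 below its 6-month level (adjusted p = 0.0322). Drd2 and Rgs9, higher at 12 months, fell by 0.86 and 0.84 from 12 to 18 months. Pcsk1n was 0.96 below its 6-month level at 18 months (adjusted p = 7.21e-09), C4b was 0.87 above (adjusted p = 3.38e-05), Cox4i1 0.48 above and Mt2 0.74 below, so for these 4 genes the 18-month level lay on the same side as the 12-month level. Ryr1 was 0.41 below its 6-month level (adjusted p = 0.00307).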

How the data were processed

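The authors deposited log2 expression levels, and the submitters' processing notes name Affymetrix Expression Console and RMA as their tools. No version or option is given in the sources used here. RNA was extracted with TRIzol and chloroform, per the labels' protocols. The table held 35556 probe sets on 29 arrays. Through the platform annotation 21789 had 1 gene symbol, 1621 had several and 12146 are unnamed here. Of the 21789, 21698 matched a gene in the RefSeq table of GRCm38.p6 by Entrez ID. For 999 genes with several probe sets the one with the highest mean was kept, which left 19938 genes.

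The test was limma's (version 3.58.1 under R 4.3.3), a linear model of 6 group means and labelled sex fitted to the 29 arrays together, with variances moderated by eBayes along a mean trend and 22 residual degrees of freedom. The two-sided p-values were corrected over the 19938 genes by Benjamini and Hochberg and called at 0.05, without a filter on dim genes or a fold threshold. Folds are 2 to the power of the log2 difference. The fitted difference accounts for sex and can depart slightly from the difference of group means. The number of arrays limits the precision. The script was tested on simulated data.

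The comparison, the 40 gene lists and the alternatives were chosen with earlier results of these data known. Named are the first 15 genes by p that rose and the first 15 that fell (1 gene without a proper name was skipped), up to 4 members of each list by smallest p, genes past the test between genotypes, and 14 fixed genes, of which 13 were measured (Adora2a had no tested probe set). The collagen list was taken by symbol. The alternatives were other probe set rules, sex terms, samples, weights, scalings and genes tested, each mouse left out in turn, and 4 added after the data were seen: quantile normalization, the mean receptor level or the spread of each array as a covariate, and no receptor genes.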

Additional observations from a re-analysis of the deposited data

Results flagged for a closer look

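In 188 named genes and both HdhQ150 age groups (376 sets of values), 18 had 1 mouse far from the others of its group, measured by its gap to the nearest mouse over the range of the group. Chance alone gives about 1 in 20 such sets. At 6 months, mouse 1023, which did not match its labelled sex, stood apart in 5 genes: Ryr1 (7.71, the nearest mouse at 7.55), Htt (8.88, nearest 8.77), Uqcrc1 (9.996, nearest 10.20), Syn2 (10.45, nearest 10.65) and Shank2 (8.45, nearest 8.75). Mouse 1017 stood apart in Rpl5 (9.525, nearest 9.75) and Gpnmb (7.07, nearest 6.81). Mouse 1003 read 7.95 for Pdyn, and mouse 1016 read 11.21 for Hsp90aa1.

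At 12 months, mouse 462 stood apart in Rxrg (9.76, nearest 9.98), Dlx1 (8.32, nearest 7.60) and Snap25 (11.92, nearest 12.18). Mouse 451 did so in Gja1 (9.18), Rras2 (5.87, nearest 6.13) and Hspa1a (7.93, nearest 7.42). Mouse 453 read 9.04 for Gabra3, mouse 526 read 7.36 for Cdh5 and mouse 464 read 6.65 for Col9a1. All but Htt, Pdyn, Cdh5, Gpnmb and Col9a1 passed limma's test between the ages.

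Ryr1 changed with age in opposite directions in the genotypes, and the test of the difference between the changes gave -0.779 (adjusted p = 0.00068).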

How the results depend on the processing

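In HdhQ150 4599 of 19938 genes passed. The count was 6919 of all 35556 probe sets, and 2702 of the brighter 9969 genes (588 higher and 2114 lower). These totals differ from 19938, so the 2 counts do not rank against 4599. Over the 19938 genes, 7098 passed with array weights. With the receptor level as a covariate 94 passed, and with the spread of each array as a covariate 2670 did. Leaving out 1 mouse at a time gave 3143 (without mouse 1003) to 4788. Quantile normalization gave 3279, of which 2437 had passed before, in the same direction. For wild type (5121 of 19938 genes), labelled females alone gave 2434, and the brighter genes gave 2888 of 9969. Without mice 1023 and WT-454 the count was 3408, with the receptor covariate 168 and with the spread covariate 1058. Leaving out 1 mouse gave 3302 to 6521. Centring each array on its median gave 3259 higher and 2035 lower in wild type, against 2612 and 2509. For the difference between genotypes, 2 genes passed without mice 1023 and WT-454 and 2 with the receptor covariate, and leaving out 1 mouse gave 1 to 2. Psmd11 turned to 0.013 and Gabra5 to 0.012 with the receptor covariate, and Psmd11 to 0.0019 and Rsad2 to -0.026 with the spread covariate. The causes were not tested. Of 40 list medians, quantile normalization turned the sign of 8, the receptor covariate of 12 and the spread covariate of 13. The ependymal, neuroblast, heat shock, unfolded protein, respiratory and potassium channel medians turned under all 3. No paired analysis was possible because the groups share no replicate numbers.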

Other observations

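Beyond the lists, a few genes with the largest differences stood out, chosen after their values were seen. The rise of greatest size was that of Prl, the pituitary hormone prolactin, which read 5.46 to 5.83 at 6 months and 5.91 to 9.46 at 12 months in HdhQ150 (means 5.66 ± 0.16, n = 5, and 7.41 ± 1.48, n = 6, SD). The groups all but met at their edges, and the 12-month mice were widely spread. It rose by 1.89 (SE 0.40, adjusted p = 0.00115) in HdhQ150 and by 1.85 (adjusted p = 0.00223) in wild type. Small nuclear and nucleolar RNAs were also among the largest rises, with Scarna13 higher by 1.47 and Snora44 by 0.90. Igha, an immunoglobulin heavy chain gene, rose by 0.89 in HdhQ150 and by 0.88 in wild type.

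Among losses, Nrn1, a secreted neuritin of excitatory neurons, fell by 2.27 (SE 0.34, adjusted p = 2.28e-05), and its mean went from 9.10 to 6.81 and stood at 9.23 at 18 months. Car10 fell by 1.90, Ndst4, an enzyme of heparan sulfate, fell by 1.87 and Ccn3 fell by 1.60, each with groups that did not overlap. Nmbr, a receptor of neuromedin B, fell by 1.41 in HdhQ150 and by 0.60 in wild type.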
